A study of Mus musculus with 6 samples.

Results

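The genes followed here are 10 members of the nuclear receptor family, out of 23896 genes with a symbol in the data. They are the thyroid hormone receptors Thra and Thrb, the retinoic acid receptor Rara, the retinoid X receptors Rxra and Rxrb, the glucocorticoid receptor Nr3c1, the orphan receptors Nr2c1 (TR2) and Nr2c2 (TR4), the liver X receptor Nr1h2, and the immediate early orphan receptor Nr4a1. They were chosen by name, with earlier results of these data known, and each gene is represented by its transcript of highest mean count. All 10 were in the data. Transcripts of 9 members passed the filter on low counts, and Thrb, at 0 counts in all 6 libraries, did not.

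Nuclear receptors are transcription factors that bind DNA through a pair of zinc fingers and, in most members, switch between a corepressor and a coactivator complex when a small lipophilic ligand occupies the ligand-binding domain. Thyroid hormone receptors, retinoic acid receptors and liver X receptors bind DNA as heterodimers with a retinoid X receptor, whereas the glucocorticoid receptor is held in the cytoplasm by heat shock proteins until its ligand arrives and then acts as a dimer. In erythroid cells, the glucocorticoid receptor is known for sustaining the renewal of progenitors under stress, thyroid hormone and retinoid receptors for acting on the choice between renewal and maturation, and TR2 and TR4 for repressing the embryonic and fetal β-type globin genes.

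The libraries came from MEL cells, a transformed mouse erythroleukemia line arrested early in the erythroid lineage, which 2% DMSO releases into terminal differentiation in suspension culture. Poly(A)-selected, strand-specific RNA sequencing was done at 0, 2 and 4 days of DMSO, with 2 replicate cultures at each time and 6 libraries altogether. Day 0 is before DMSO, no day had a culture kept without DMSO beside it, and all cells are of the same line, so DMSO and time in culture cannot be told apart. Cultures are biological replicates in the study's methods, and with 2 per day the p-values rest on a spread pooled over the 3 days. Counts on transcripts summed to between 35294930 and 53899476 per library. Of 10 erythroid marker genes, 9 were higher and 1, Klf1, was lower at day 4 than at day 0, and globin transcripts went from at most 0.0426% of counts at day 0 to between 3.84% and 4.12% at day 4. Of 12 markers listed for other blood lineages, 11 were matched and 6 could be tested, of which 3 (Pf4, Cd68 and Kdr) were lower and 1 (Itga2b, a megakaryocytic and progenitor integrin) was higher at day 4 than at day 0. Their summed level without Itga2b was 64.2 and 49.3 CPM at day 0, 15.6 and 14.3 CPM at day 2, and 12.9 and 11 CPM at day 4, and with it 273, 276, 211, 233, 544 and 617 CPM in the same order. Kdr had 16 and 15 counts at day 0 and at most 2 in any later library, so it could be tested only through day 0. Ms4a1 was at 0 counts in every library, and Cd3e, Elane and Itgam had at most 3 counts in any library. The part of these markers in the receptor results was not tested.

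Members of this family have similar sequences in their DNA-binding domain, so reads of a receptor can resemble those of its relatives. The 30 bases below encode the end of the first zinc finger, with the residues of the P box that read the DNA half-site, and are shown because all of these receptors share this part of the protein. They were read from GENCODE transcripts of GRCm38 5′ to 3′ on the coding strand, all are coding exon sequence, and capitals mark bases that differ from Thra.
Thra (chr11:98757009-98760890, plus strand, with an intron inside): tgtgagggctgcaagggcttctttcgccgc
Thrb (chr14:18002614-18008583, plus strand, with an intron inside): tgtgaAggctgcaagggcttctttAgAAgA
Rara (chr11:98966481-98968059, plus strand, with an intron inside): tgtgagggctgTaagggcttcttCcgAcgA
Rxra (chr2:27741787-27741816, plus strand): tgtgagggctgcaagggcttcttCAAGAgG
Rxrb (chr17:34034045-34034074, plus strand): tgCgagggctgcaagggTttcttCAAGcgc
Nr2c2 (chr6:92154358-92154387, plus strand): tgtgaAggTtgcaaAggTttcttCAAAAgG
Nr1h2 (chr7:44552088-44552117, minus strand): tgtgaAggctgcaaAggcttcttCcgGcgc
Nr4a1 (chr15:101270943-101271738, plus strand, with an intron inside): tgtgagggctgcaagggcttcttCAAGcgc

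Between 4 and 10 of the 30 bases shown differed from Thra, with Rara, Nr1h2 and Nr4a1 at 4 and Nr2c2 at 10, and no sequence is shown for Nr3c1 or Nr2c1. Over the whole transcripts, none of the 45 pairs of members shared a single run of 31 bases. A read of that length without mismatches could therefore be placed on only 1 of the 10 genes as far as these members go.

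After 2 days of DMSO, Thra rose to about 2.08 times its starting level, Nr3c1, Nr2c1, Nr2c2 and Rxra rose by less, and Nr4a1 fell. These 6 of 9 tested members passed the test between day 0 and day 2, which is an adjusted p below 0.05 in edgeR's quasi-likelihood test, and 62.5% of all 12381 tested genes did so too (31% higher and 31.5% lower). Between day 2 and day 4, Nr1h2, which rose, was the 1 member that passed, where 30.3% of all tested genes did (14% higher and 16.2% lower). By day 4, Thra, Nr1h2, Nr2c1, Rxrb, Nr3c1 and Rxra were above day 0 and Rara was below it, which makes 7 of 9 members, where 71.8% of all tested genes passed. The share of members that passed was thus near that of all genes in both comparisons with day 0. By direction, 6 members were higher and 1 was lower at day 4 than at day 0, whereas all tested genes split into 35.5% higher and 36.4% lower. The median of the log2 fold changes between day 0 and day 4 was 0.35 over the 9 tested members and -0.02 over all tested genes. Because the members were chosen with earlier results of these data known, these contrasts in direction are only a description. With 1 library left out, the number of members that passed ranged from 5 to 7 at day 2 and from 3 to 8 at day 4, both relative to day 0, with 3 members left when replicate 2 of day 4 was dropped.

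**Figure D1:**
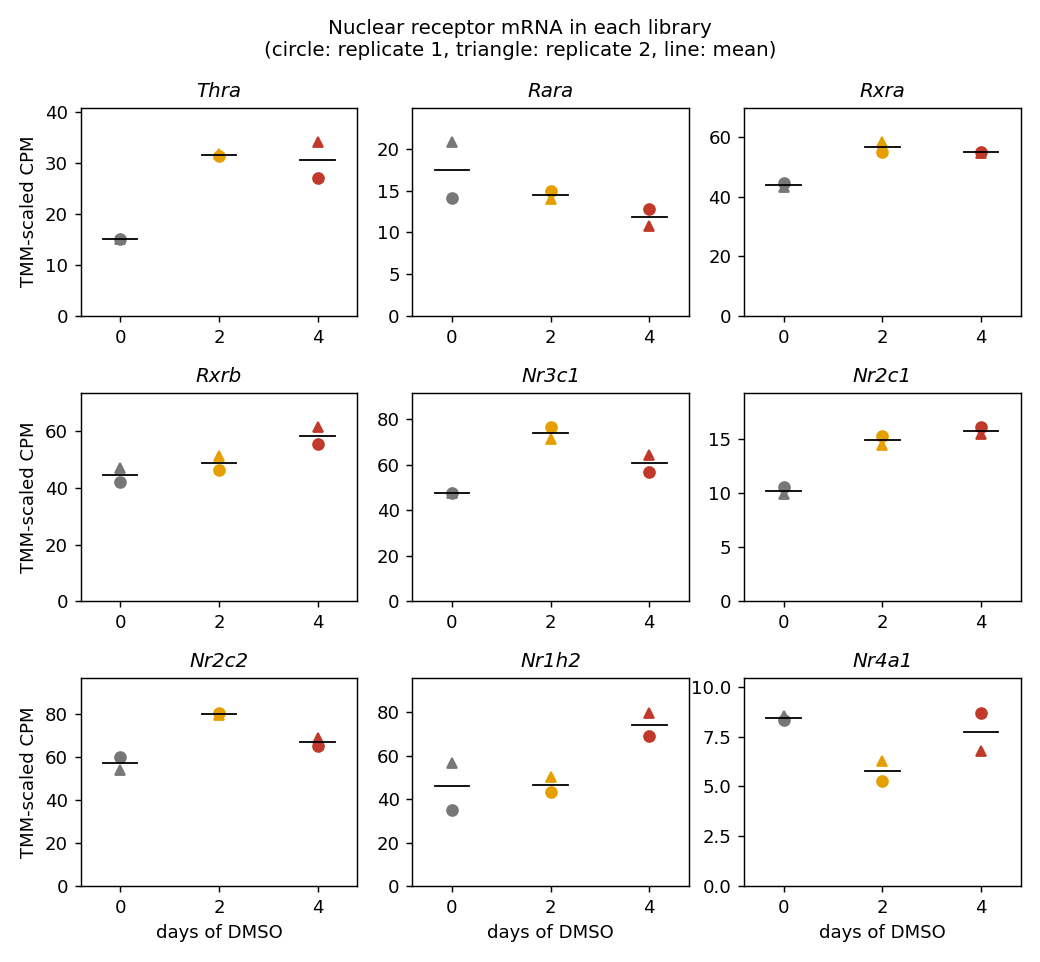
Counts per 1000000 counts after TMM scaling (CPM, y axis from 0) of each of the 9 tested receptors against days of DMSO (x axis), with a circle for replicate 1, a triangle for replicate 2 and a line at the mean of each day. Thra at days 2 and 4 lies above both day 0 libraries, and the day 0 libraries of Rara and Nr1h2 lie far apart.

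Thra encodes the thyroid hormone receptor that predominates in most tissues outside the liver and pituitary. Its level in CPM, the counts of the transcript per 1000000 counts of the library after TMM scaling for composition, was 15.1 and 15.1 in the day 0 libraries, 31.4 and 31.7 at day 2, and 27.0 and 34.0 at day 4. Every library with DMSO lay above both day 0 libraries, and the day 2 values fell within the range of the day 4 values. Thra rose 2.08-fold from day 0 to day 2 (log2 fold change 1.06 ± 0.13, SE, n = 2 per day, adjusted p = 5.23e-05 by edgeR). No change from day 2 to day 4 was detected (log2 fold change -0.05 ± 0.13, adjusted p = 0.804 by edgeR), so day 4 stood 2.01-fold above day 0 (adjusted p = 4.21e-05 by edgeR). The rise passed the test at days 2 and 4 under every alternative run. Among these, the limit of 1 was a cutoff on the fitted log2 fold change, and a rise above 2-fold was not tested. With 1 library left out, the fitted log2 fold change from day 0 to day 4 ranged from 0.83 to 1.17. In bulk RNA, a larger share of cells with the transcript and more transcript per cell cannot be told apart, here or for the genes below. Nr1d1, which lies on the opposite strand at the 3′ end of the Thra locus and overlaps another Thra isoform but not the counted one, was between 2.23 and 3.44 CPM in all 6 libraries and did not pass in any comparison.

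Thrb, which encodes the second thyroid hormone receptor, had 0 counts on both of its transcripts in all 6 libraries. Where reads of a gene could be counted, a count of 0 allows up to 3 counts per library, or between 0.0604 and 0.0831 CPM depending on the library, and these limits cover counting error only. Of the 32654 transcripts in the data, 9436 were at 0 in all libraries and 2952 had a total of 1 to 6 counts. Whether a 0 in every library, here or for the other genes given at 0, reflects missing transcript or the annotation used in counting was not tested.

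Rara, a receptor for all-trans retinoic acid, was 14.1 and 20.8 CPM at day 0, 14.99 and 13.9 CPM at day 2, and 12.9 and 10.8 CPM at day 4. Both day 4 libraries were below both day 0 libraries, but the lower day 0 library fell within the range of day 2. Its log2 fold change over the 4 days was -0.56 ± 0.18 (SE, n = 2 per day, adjusted p = 0.0149 by edgeR), and neither step alone passed the test (adjusted p = 0.201 for the first and 0.243 for the second by edgeR). The call depended on single libraries: without replicate 2 of day 0 the log2 fold change was -0.27 (adjusted p = 0.119 by edgeR), and without replicate 2 of day 4 it was -0.45 (adjusted p = 0.1 by edgeR).

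Rxra and Rxrb encode retinoid X receptors, the shared partners of the thyroid, retinoic acid and liver X receptors. Rxra was 44.6 and 43.2 CPM at day 0, 55.1 and 58.3 CPM at day 2, and 55.0 and 54.7 CPM at day 4. Both later days lay above day 0 without overlap. Rxra was 1.29-fold higher at day 2 (adjusted p = 0.00818 by edgeR) and 1.25-fold higher at day 4 (adjusted p = 0.0138 by edgeR) than at day 0, and its day 2 call was lost without replicate 2 of day 2 (adjusted p = 0.0841 by edgeR). The day 4 call was lost when either day 4 library was dropped (adjusted p = 0.0728 and 0.0739 by edgeR). Rxrb was 42.1 and 47.2 CPM at day 0, 46.5 and 51.2 CPM at day 2, and 55.6 and 61.4 CPM at day 4. Its day 0 and day 2 libraries overlapped, and both day 4 libraries were above all others. Rxrb was 1.31-fold higher at day 4 than at day 0 (log2 fold change 0.39 ± 0.11, adjusted p = 0.00929 by edgeR, and 0.097 without replicate 2 of day 4), while the day 2 value was 1.10-fold that of day 0 and missed the threshold (adjusted p = 0.334 by edgeR, and 0.0234 with total counts). The Rxrb step from day 2 to day 4 had a log2 fold change of 0.26 ± 0.11 and missed the threshold (adjusted p = 0.106 by edgeR). That step passed when only the libraries of those 2 days were fitted (adjusted p = 0.0323 by edgeR). The ratio of Rxra to Rxrb counts within a library, which no scaling touches, was 1.06 and 0.915 at day 0, 1.18 and 1.14 at day 2, and 0.99 and 0.89 at day 4. Day 2 was thus above the other days, and days 0 and 4 overlapped.

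Nr3c1, the glucocorticoid receptor, was 47.4 and 47.6 CPM at day 0, 76.4 and 71.2 CPM at day 2, and 57.0 and 64.4 CPM at day 4. The day 2 libraries were the highest and the day 0 libraries the lowest, with no overlap between days. It rose 1.55-fold in the first step (log2 fold change 0.63 ± 0.11, SE, n = 2 per day, adjusted p = 0.000393 by edgeR) and was 1.28-fold above day 0 at day 4 (adjusted p = 0.0114 by edgeR, and 0.138 without replicate 2 of day 4). The step from day 2 to day 4 had a log2 fold change of -0.28 ± 0.11 and missed the threshold (adjusted p = 0.0659 by edgeR). It passed (adjusted p = 0.0168) when only the libraries of those 2 days were fitted.

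Nr2c1 (TR2) and Nr2c2 (TR4) encode the orphan receptors that form the DNA-binding core of the direct repeat erythroid-definitive complex. Nr2c1 was 10.6 and 9.87 CPM at day 0, 15.3 and 14.4 CPM at day 2, and 16.1 and 15.4 CPM at day 4. Both later days were above day 0, and no change between them was detected (adjusted p = 0.649 by edgeR). Its rise was 1.45-fold at day 2 (adjusted p = 0.0032 by edgeR) and 1.54-fold at day 4 (log2 fold change 0.62 ± 0.13, adjusted p = 0.000982 by edgeR). Nr2c2 was 60.0 and 54.0 CPM at day 0, 80.6 and 79.6 CPM at day 2, and 65.3 and 68.6 CPM at day 4. Its day 2 libraries were the highest, and day 4 lay between the other days. Nr2c2 rose 1.41-fold at day 2 (log2 fold change 0.49 ± 0.10, adjusted p = 0.0017 by edgeR), and at day 4 it was 1.18-fold the day 0 level and missed the threshold (adjusted p = 0.0622 by edgeR, and 0.0125 with scaling by total counts). Within a library, the ratio of Nr2c2 to Nr2c1 counts was 5.67 and 5.47 at day 0, 5.27 and 5.51 at day 2, and 4.06 and 4.45 at day 4, so the day 4 libraries had the lowest ratio. These ratios are of counts and not per length.

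Part of the Nr2c2 transcript, 3533 exon bases or 46.2%, lies opposite exons of Mrps25, which encodes a mitochondrial ribosomal protein on the other strand. Mrps25 was 35.02 and 36.3 CPM at day 0, 30.5 and 31.2 CPM at day 2, and 30.6 and 27.1 CPM at day 4. For Nr2c2 the step from day 2 to day 4 missed the threshold (log2 fold change -0.26, adjusted p = 0.0794 by edgeR). It passed when only the libraries of those 2 days were fitted (adjusted p = 0.0163 by edgeR) and with total counts (adjusted p = 0.0318 by edgeR). Whether Mrps25 reads entered the Nr2c2 counts was not tested. How the counter used strand is not given in the sources used here. Of 26 genes with over 70% of their exon bases opposite a gene with over 5000 counts, 14 had under 5% of that gene's counts per base.

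Nr1h2, which encodes the widely expressed liver X receptor β, a sensor of oxidized cholesterol, was 35.2 and 56.7 CPM at day 0, 43.1 and 50.2 CPM at day 2, and 68.8 and 79.7 CPM at day 4. Both day 4 libraries were above all others, and the day 0 libraries spanned the whole range of day 2. It rose 1.59-fold from day 2 to day 4 (log2 fold change 0.67 ± 0.19, SE, n = 2 per day, adjusted p = 0.0207 by edgeR) and was 1.61-fold above day 0 at day 4 (adjusted p = 0.00632 by edgeR), a log2 fold change of 0.69 that became 0.38 without replicate 1 and 1.06 without replicate 2 of day 0, passing the test in both cases. Between day 0 and day 2 its log2 fold change was 0.02 ± 0.19 (adjusted p = 0.932 by edgeR), and leaving out either day 0 library moved it to -0.28 or 0.40. The call of the later step was lost without replicate 1 of day 2 (log2 fold change 0.56, adjusted p = 0.204 by edgeR), without replicate 2 of day 2 (0.78, adjusted p = 0.075) and without replicate 2 of day 4 (0.56, adjusted p = 0.141).

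Nr4a1, an immediate early gene without a known physiological ligand, was 8.33 and 8.52 CPM at day 0, 5.29 and 6.29 CPM at day 2, and 8.70 and 6.76 CPM at day 4. The day 2 libraries were the lowest, and the day 4 libraries spanned those of day 0. It fell at day 2 (log2 fold change -0.54 ± 0.17, SE, n = 2 per day, adjusted p = 0.0159 by edgeR). The log2 fold change from day 0 to day 4 was -0.13 ± 0.17 (adjusted p = 0.502 by edgeR). The fall did not pass with scaling by total counts (log2 fold change -0.34, adjusted p = 0.107 by edgeR) or without replicate 1 of day 2 (-0.42, adjusted p = 0.143).

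**Figure D2:**
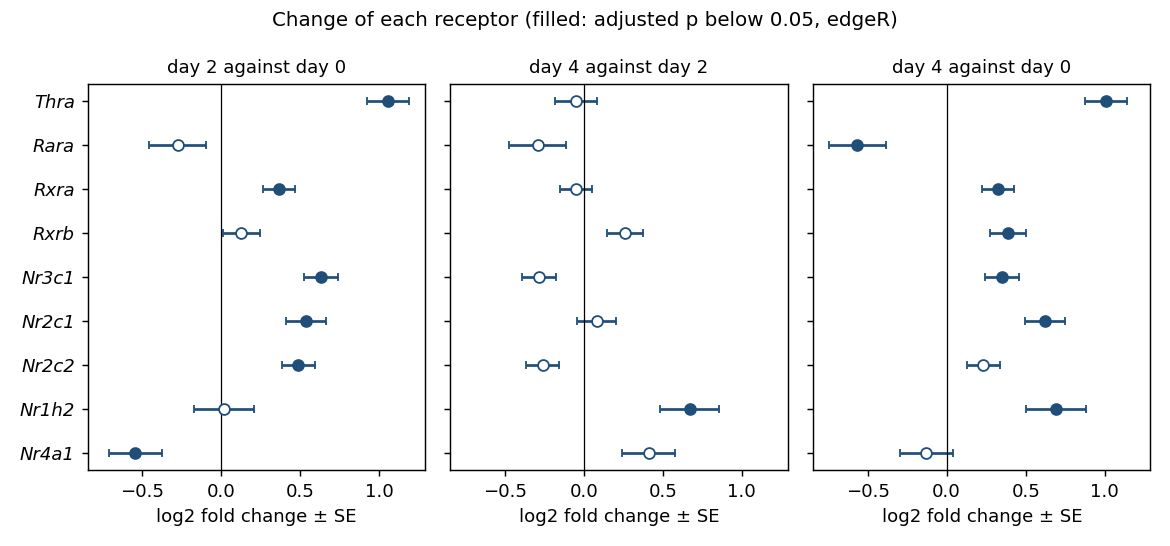
Log2 fold change with its standard error (x axis) of each of the 9 tested receptors (y axis) in 3 comparisons of days, from edgeR with 2 libraries per day. Filled points had an adjusted p below 0.05: 6 from day 0 to day 2, 1 from day 2 to day 4, and 7 from day 0 to day 4.

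The first and second steps were compared within each member. For 4 of the 9 tested members the change from day 2 to day 4 differed from that from day 0 to day 2 in the test of the difference itself, and 30% of all tested genes passed the same test (13.1% with a higher and 16.9% with a lower second step). The second step was lower than the first by 1.11 ± 0.22 on the log2 scale for Thra (adjusted p = 0.0048 by edgeR), by 0.92 ± 0.18 for Nr3c1 (adjusted p = 0.00437) and by 0.75 ± 0.18 for Nr2c2 (adjusted p = 0.01). It was higher than the first by 0.95 ± 0.30 for Nr4a1 (adjusted p = 0.0336 by edgeR), which was lost with total counts (0.67, adjusted p = 0.109) and without replicate 1 of day 4 (0.76, adjusted p = 0.0906). With either day 2 library left out, the adjusted p of the 4 differences lay between 0.0502 and 0.311 by edgeR and each kept its sign, between -1.13 and -0.73 for the 3 that were lower and at 0.71 and 1.21 for Nr4a1. For Nr1h2 the difference was 0.65 ± 0.33 and did not pass (adjusted p = 0.157 by edgeR), so a rise restricted to the late step was not shown.

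**Figure D3:**
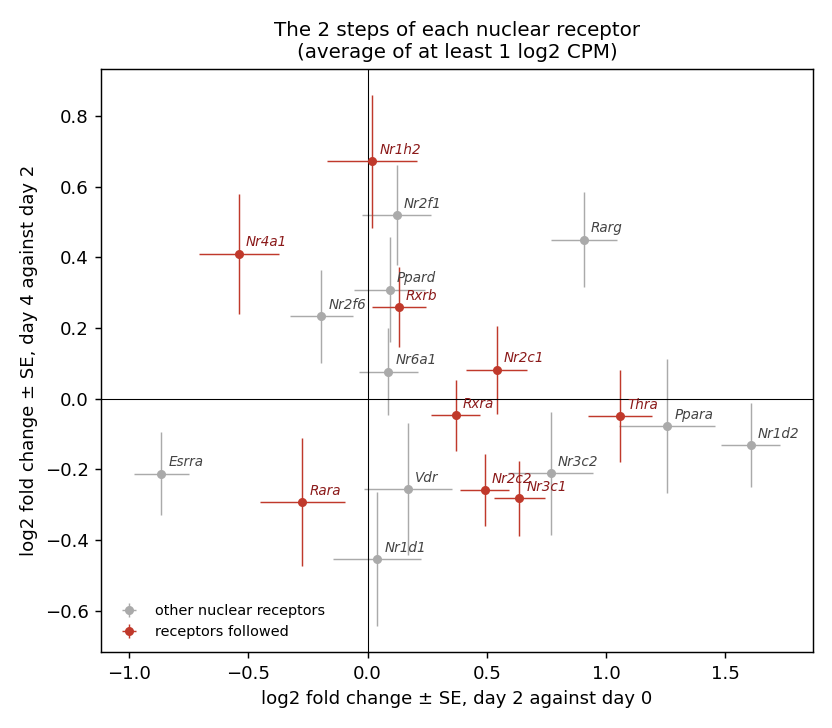
Log2 fold change of the first step, days 0 to 2 (x axis), and of the second step, days 2 to 4 (y axis), each with its standard error, for the 9 receptors followed (red) and for other tested nuclear receptors with an average of at least 1 log2 CPM (grey). Nr1h3, at -0.58 and -0.02, met this limit but is not drawn. Both axes share the day 2 libraries. Thra lies at 1.06 and -0.05, Nr1h2 at 0.02 and 0.67, and Rarg, Ppara and Nr1d2 lie to the right among the other receptors.

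Between genes, levels were compared per length, as CPM per kb of the longest counted transcript, and as a description without a test. The place of Rxra turned on that length. Its transcripts of 4905 and 1989 bases had nearly the same counts (13577 and 13585 over all libraries), and its mean level at days 0, 2 and 4 was 8.94, 11.6 and 11.2 CPM per kb with the first length and 22.1, 28.5 and 27.6 CPM per kb with the second, so Rxra is left out of the order that follows. At day 0 the order was Nr1h2 (17.6 and 28.4 CPM per kb), Rxrb (16 and 18), Nr3c1, Nr2c2, Thra, Rara (4.16 and 6.14), Nr4a1 and Nr2c1 (2.84 and 2.64). The libraries of Nr1h2 and Rxrb overlapped, as did those of Nr3c1 and Nr2c2, and the other neighbours did not. At day 2 Thra, with 14 and 14.1 CPM per kb, stood above Nr3c1 and Nr2c2, both of which were above it at day 0, and it was above them at day 4 with 12 and 15.1 CPM per kb. Nr1h2 had 34.4 and 39.9 CPM per kb at day 4, and Rxrb had 21.2 and 23.4. The lowest at day 4 were Nr2c1 (mean 4.22 CPM per kb), Rara (3.49) and Nr4a1 (3.12), and the libraries of Rara and Nr4a1 overlapped. The ratio of Thra to Rara counts within a library went from 1.07 and 0.728 at day 0 to 2.09 and 2.27 at day 2 and 2.1 and 3.15 at day 4.

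**Figure D4:**
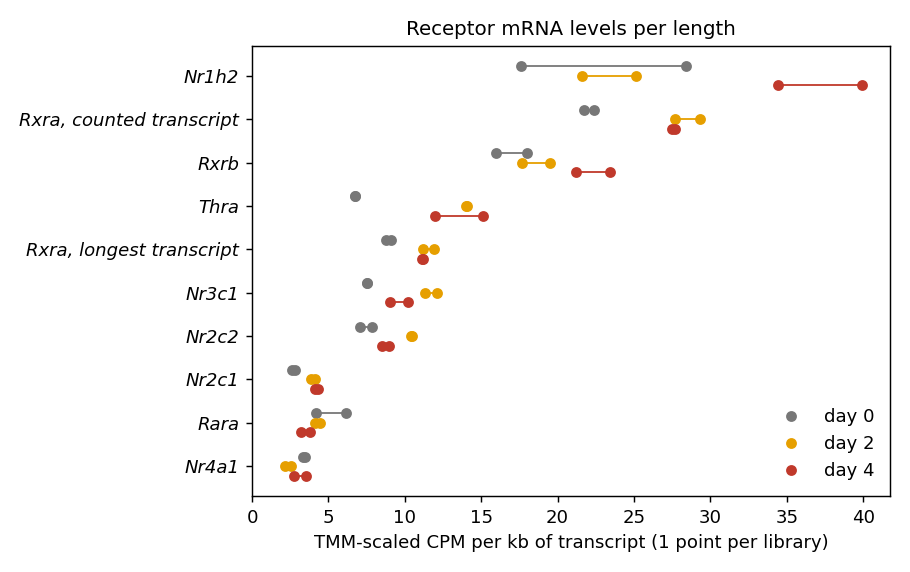
TMM-scaled CPM per kb of transcript (x axis from 0) of the 9 receptors (y axis, in the order of the day 4 means), with 1 point per library and colours for days 0, 2 and 4, and with Rxra drawn at the lengths of its longest (4905 bases) and its counted (1989 bases) transcript. Thra is below Nr3c1 and Nr2c2 at day 0 and above them at days 2 and 4, and at days 2 and 4 Rxra lies below or above Thra depending on its length.

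Of the 39 other nuclear receptor genes listed, 15 were given at 0 counts in every library, among them the paralogs Rarb and Rxrg, and 18 could be tested. Between day 0 and day 4, 8 of these were higher and 6 were lower, with a median log2 fold change of 0.10. Of all tested genes, 35.5% were higher and 36.4% were lower. The largest fitted changes belonged to genes with few reads. Nr0b2 had 13 counts in each day 0 library and 0 in every later library. Pparg had 22 and 25 counts at day 0, 0 in both day 2 libraries and 1 in each day 4 library. Nr1i3 had 24 and 26 counts at day 0, 3 and 5 at day 2, and 1 in each day 4 library. Nr4a3, a relative of Nr4a1, had 9 and 5 counts at day 0, 28 and 31 at day 2, and 33 and 35 at day 4. Nr0b2, Pparg and Nr1i3 passed the filter on low counts only through day 0, and Nr4a3 only through the later days. The directions of these genes in the tally therefore followed from how they entered the test.

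The closest relatives of members were looked at after their values were seen. Rarg, which encodes retinoic acid receptor γ, was 9.41 and 11.4 CPM at day 0, 19.9 and 19.1 CPM at day 2, and 24.7 and 28.5 CPM at day 4, with no overlap between days. It was 2.56-fold higher at day 4 than at day 0 (adjusted p = 5.85e-06 by edgeR). The ratio of Rarg to Rara counts was 0.668 and 0.547 at day 0, 1.32 and 1.37 at day 2, and 1.92 and 2.64 at day 4, so Rarg had fewer counts than Rara before DMSO and more in every later library. Nr4a2, the other relative of Nr4a1, was 5.27-fold higher at day 4 than at day 0 (0.613 and 0.745 CPM against 3.16 and 4.04 CPM, adjusted p = 4.73e-06 by edgeR), and its counts went from 0.0735 and 0.0875 of those of Nr4a1 at day 0 to 0.516 and 0.434 at day 2 and 0.363 and 0.598 at day 4. Nr1h3, which encodes liver X receptor α, was lower at day 4 than at day 0 (log2 fold change -0.60 ± 0.18, adjusted p = 0.0116 by edgeR). Its counts were at most 0.111 of those of Nr1h2 in any library. Nr3c2, the mineralocorticoid receptor, rose 1.70-fold at day 2 (adjusted p = 0.0031 by edgeR) and kept a ratio of 0.0567 to 0.0711 to the counts of Nr3c1 in all 6 libraries. Nr1d2, a heme-binding repressor, rose from 12.4 and 11.2 CPM at day 0 to 37.0 and 34.8 CPM at day 2 (adjusted p = 1.84e-06 by edgeR).

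The genes around the receptors were described by lists drawn up by function, each set beside all tested genes, of which 31% were higher and 31.5% lower at day 2, and 35.5% higher and 36.4% lower at day 4, than at day 0. For the glucocorticoid receptor, 10 genes for its chaperones and ligand enzymes could be tested, and 8 were lower and 1 was higher at day 4 than at day 0 (6 lower and 1 higher at day 2). Hsp90ab1, an HSP90 chaperone that holds the receptor ready for ligand, fell by 1.59 on the log2 scale by day 4 (adjusted p = 1.37e-05 by edgeR), Fkbp4, a co-chaperone that favours its transport to the nucleus, fell by 1.53 (adjusted p = 5.25e-07) and Hsp90aa1 fell by 1.19 (adjusted p = 1e-05). Hsd11b2, which encodes the enzyme that inactivates cortisol and corticosterone, went the other way. It was 0.588 and 0.806 CPM at day 0, 5.68 and 7.84 CPM at day 2, and 5.04 and 5.88 CPM at day 4, a 7.74-fold rise by day 4 (adjusted p = 1.52e-06 by edgeR). Hsd11b1, for the enzyme that regenerates the active hormone, was at 0 counts in every library.

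Genes known as glucocorticoid targets did not move one way. Of 14 tested, 4 were higher and 6 were lower at day 4 than at day 0, with a median log2 fold change of -0.05. Dusp1, a MAP kinase phosphatase, rose 6.02-fold by day 4 (adjusted p = 1.17e-07 by edgeR), from 9.95 and 8.04 CPM to 48.8 and 59.3 CPM. Sgk1, a serum- and glucocorticoid-regulated kinase, fell by 2.54 on the log2 scale (adjusted p = 1.16e-06), and the metallothioneins Mt2 and Mt1 fell by 2.08 and 2.04. Klf9, in the lists for glucocorticoid and for thyroid hormone, was given at 0 counts in every library.

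In the list for retinoid handling and targets, 7 of 19 genes could be tested, of which 6 rose and none fell at day 2, and 4 rose and none fell by day 4, with a median log2 fold change of 0.64. Among these, Aldh1a1, which makes retinoic acid from retinal, was low at day 0 and went from 0.098 and 0.322 CPM, or 4 and 16 counts, to 4.99 and 5.19 CPM at day 4. Crabp2, a carrier of retinoic acid to its receptor, went from 0.270 and 0.202 CPM to 2.52 and 2.01 CPM. Both rose in each step and by day 4 (adjusted p = 5.17e-07 and 3.73e-06 by day 4 by edgeR). Tgm2, a transglutaminase induced by retinoic acid in other cells, rose 1.56-fold (adjusted p = 0.00122 by edgeR). The retinoic acid hydroxylases Cyp26a1, Cyp26b1 and Cyp26c1, which are direct targets of the receptors elsewhere, had at most 0.123 CPM on any day's mean and were not tested.

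For thyroid hormone, 6 of 14 genes for transport, deiodinases and targets could be tested, of which 2 were higher and 4 were lower at day 4 than at day 0. Slc16a10, a transporter of thyroid hormone and aromatic amino acids, was 30.6 and 28.95 CPM at day 0, 61.6 and 66.1 CPM at day 2, and 78.6 and 98.9 CPM at day 4, a 2.98-fold rise (adjusted p = 1.07e-06 by edgeR). Slc7a8, another carrier with some thyroid hormone transport, was 1.87-fold higher at day 4 (adjusted p = 0.00272). Slc3a2, the heavy chain of amino acid transporters, fell by 1.06 on the log2 scale (adjusted p = 9.22e-06), and Me1, malic enzyme and a hepatic thyroid hormone target, fell by 1.01 (adjusted p = 3.18e-05). The deiodinase genes Dio1 and Dio3 were at 0 counts in every library.

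Of 11 tested liver X receptor targets, 8 were lower and 2 were higher at day 4 than at day 0, with a median log2 fold change of -0.60. Scd2 and Scd1, which encode stearoyl-CoA desaturases, fell by 2.64 (adjusted p = 8.38e-08 by edgeR) and 2.02 (adjusted p = 4.06e-07) on the log2 scale. Mylip, a ubiquitin ligase for the LDL receptor, rose 5.43-fold from 8.26 and 6.83 CPM to 37.0 and 44.7 CPM (adjusted p = 1.56e-07), and Pltp, a phospholipid transfer protein, rose 3.14-fold (adjusted p = 2.62e-06). Whether a liver X receptor acted on any of them was not tested.

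Among 8 proteins that work with TR2 and TR4 as corepressors, 3 were higher and 4 were lower at day 4 than at day 0. Dnmt1, the maintenance DNA methyltransferase, fell by 1.51 on the log2 scale, from 1465 and 1539 CPM at day 0 to 486 and 567 CPM at day 4 (adjusted p = 1.83e-06 by edgeR). Hdac2, a histone deacetylase, fell by 0.92 (adjusted p = 3.81e-05), and Rcor1, a scaffold of the LSD1 complex, rose by 0.62 (adjusted p = 0.000207) on the same scale. At day 2 they numbered 1 higher and 4 lower, which total-count scaling turned to 2 higher and 1 lower. Of 4 globin genes listed as embryonic-type, Hba-x rose in both steps, from 4.34 and 4.57 CPM at day 0 to 209 and 462 CPM at day 4 (adjusted p = 1.19e-07 by edgeR). The β-type genes Hbb-y and Hbb-bh1, which TR2 and TR4 repress in definitive cells, had too few counts to be tested, and so did Hbb-bh2. Their day 4 means were 0.0775, 0.269 and 0.0747 CPM in this order. Globin genes have near-identical copies, so the placement of their reads is uncertain.

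General coregulators are shared by many receptors and other factors. Among 16 tested coactivators, 8 were higher and 5 were lower at day 4 than at day 0. Pnrc1 rose 4.89-fold (adjusted p = 6.79e-08 by edgeR), and Ncoa7 and Ncoa1 rose 2.33-fold and 2.18-fold, whereas Prmt1, an arginine methyltransferase, fell by 2.08 on the log2 scale from 209 and 188 CPM to 50.7 and 43.6 CPM (adjusted p = 9.86e-08). Among 11 tested corepressors, 7 were higher and 2 were lower. Tbl1xr1, a subunit of the NCoR and SMRT complexes, fell by 0.86 on the log2 scale (adjusted p = 5.68e-05 by edgeR), and the ligand-dependent corepressors Lcor and Nrip1 rose by 0.86 and 0.66. Hr, another corepressor, fell by 0.90 (adjusted p = 0.0478) at under 1 CPM. Between day 2 and day 4 each of these lists had 0 to 2 genes left that passed when 1 day 2 library was left out, other than the glucocorticoid targets with 4 and 7, and so no list is described for that step.

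**Figure D5:**
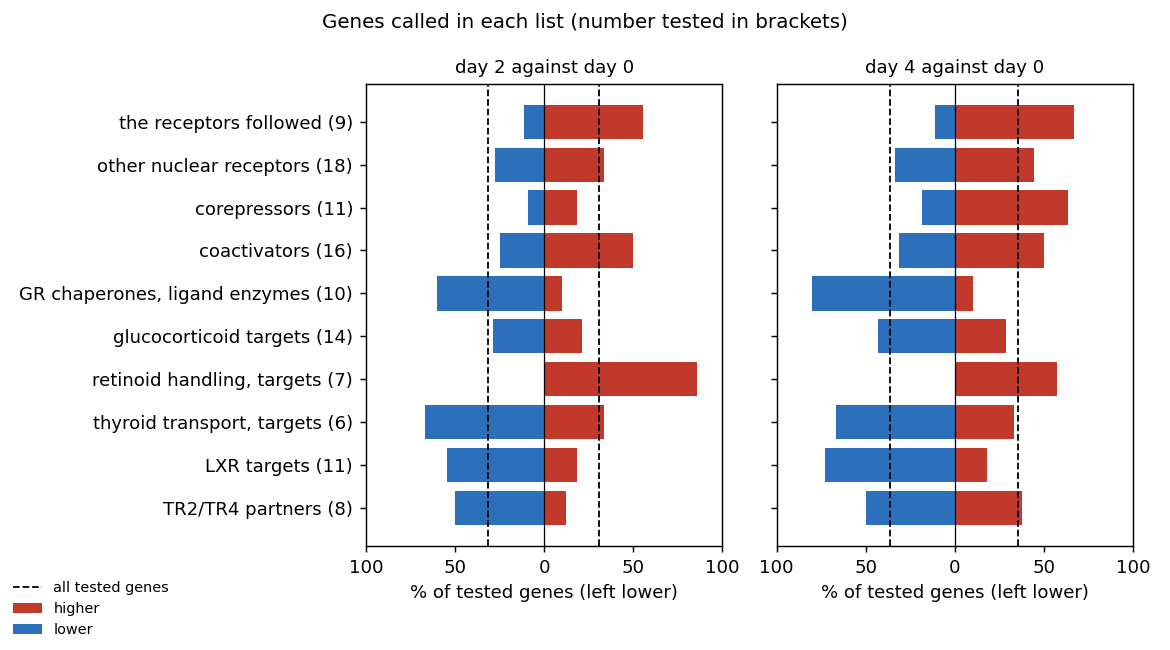
Share of tested genes in each list (y axis, number tested in brackets) that were higher (red, to the right) or lower (blue, to the left) at an adjusted p below 0.05, at days 2 and 4 relative to day 0. Dashed lines mark the shares of all tested genes, 31% higher and 31.5% lower at day 2 and 35.5% and 36.4% at day 4. Chaperone genes and liver X receptor targets extend mostly to the left and retinoid genes only to the right.

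The genes with the pattern most like that of Thra over the 6 libraries, by Pearson correlation of log2 CPM among 10315 genes with an average of at least 1 log2 CPM, were Cacnb1 (r = 0.999), Phtf1 (r = 0.998) and Ankhd1 (r = 0.998). Their log2 fold changes from day 0 to day 4 were 0.64, 0.44 and 0.29, smaller than the 1.01 of Thra. For Rara, the member with the largest fall, they were Bcs1l (r = 0.983), Igbp1 (r = 0.982) and Pdcl3 (r = 0.979), with log2 fold changes of -0.66, -0.96 and -0.51. The 6 libraries share 3 days and 2 replicates, so among this many genes high correlations are common, and these values only describe the pattern.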

How the data were processed

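RNA from 2 MEL cultures per day (0, 2 and 4 days of 2% DMSO) was sequenced with a stranded, poly(A)-selected kit. The authors trimmed adapters with cutadapt, aligned reads to mm10 with TopHat and counted them per RefSeq transcript. The submitters' processing notes also name HTSeq and DESeq2, and the counter's settings and annotation release are not given in the sources used here. The deposited values are raw read counts per transcript for each library, without normalization or pooling. Reads on no feature (50.5% to 58.4% of reads) and other rows that name no transcript were left out.

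Of 32654 transcripts, 32199 were given a symbol by RefSeq and 187 more by GENCODE M21 (GRCm38), and a gene was represented by its transcript of highest mean count. Counts were tested in edgeR 4.0.16 (R 4.3.3) with TMM factors, filterByExpr by day (18351 transcripts, 12381 genes) and 1 quasi-likelihood fit over 6 libraries with a mean per day. Benjamini-Hochberg adjustment ran over all tested transcripts, with calls at an adjusted p below 0.05. Fold changes and CPM are relative to the RNA in a library, so a change in total RNA per cell is not measured. Standard errors are the absolute log2 fold change divided by the root of F. Values of CPM per kb used GENCODE transcript lengths. The depth, 35294930 to 53899476 counts per library, sets a limit of 3 counts for a gene at 0. In simulated counts for day 4 against day 0 over 18096 transcripts, 89.4% of 198 transcripts changed 2-fold were recovered. The simulation used the same dispersion trend for all days. It does not cover smaller changes, such as those of most members, transcripts that vary more than this trend, or a spread that differs between days.

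Replicates differed by more than sampling noise (chi-square per degree of freedom 60.5, 10.8 and 17.0 for days 0, 2 and 4). Members and lists were chosen with earlier results of these data known. All members were described, and from each list up to 4 called genes with the largest absolute log2 fold change, plus overlapping genes. A few items are not reported here. The alternatives were DESeq2 1.42.0, relative log expression factors, total counts, no globin transcripts, no filter, a fit of only 2 days, a block for the replicate number, a limit of 1 on the log2 fold change, another transcript or 1 transcript per gene, and leaving out each library; those for lists, and another length for levels per length, were added after seeing the data. Figures were drawn with matplotlib.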

Additional observations from a re-analysis of the deposited data

Results flagged for a closer look

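For 4 receptors the change from day 2 to day 4 differed from that from day 0 to day 2 in the fit's test of the difference. The difference of the steps, on the log2 scale, was -1.11 for Thra, -0.92 for Nr3c1, -0.75 for Nr2c2 and 0.95 for Nr4a1. Both steps use the day 2 libraries. With 2 libraries per day, no library could be tested as standing apart from its group.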

How the results depend on the processing

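The number of members that passed from day 0 to 2, from day 2 to 4 and from day 0 to 4 was 6, 1 and 7, and 4 members had steps that differed. A limit of 1 on the log2 fold change left 1, 0 and 1 of the first 3 counts. From day 2 to day 4, total counts gave 3 and a fit of only those days gave 4. Leaving out 1 library gave 5 to 7, 0 to 4 and 3 to 8 members, and 0 to 6 whose steps differed, with 0 without either day 2 library. With the replicate number as a block the counts were 6, 1, 7 and 4, so the block changed none of them. Same-numbered libraries did not deviate together (correlations of 0.0316, 0.0451 and 0.0791), so the numbers were not taken as pairs.

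Of the members' changes run under these alternatives, signs turned in 5, none of them called with the reported settings. Nr1h2 from day 0 to day 2 had a log2 fold change of -0.0047 in DESeq2 and -0.0089 with relative log expression factors, and with 1 library left out it ranged from -0.28 (without replicate 1 of day 0) to 0.40, with -0.09 without replicate 2 of day 2. Likewise Rara over the same days ranged from -0.53 to 0.029 (without replicate 2 of day 0), Thra from day 2 to day 4 from -0.23 to 0.11 (without replicate 1 of day 4), and Nr4a1 from day 0 to day 4 from -0.32 to 0.042 (without replicate 2 of day 4). Nr2c1 from day 2 to day 4 was -0.0011 with total counts. The causes were not tested. Total counts shifted the median of all transcripts on the log2 scale by 0.20 in the first step, -0.08 in the second and 0.11 over both. Of 396 list counts recomputed, 51 moved by over 1.5 times. A fit without 1 library assumes that the lone library of that day varies like the others.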
